A study of Mus musculus with 4 samples.

Results

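The genes described here encode the mitochondrial citrate cycle and its main entry enzyme. The 9 members are Pdha1, Cs, Idh3a, Idh2, Ogdh, Suclg1, Sdha, Fh1 and Mdh2, chosen by name as subunits that cover the entry and most steps of the cycle, and all 9 were found among the 32285 genes of the count matrices. They were measured by Visium, which captures mRNA on a slide of barcoded spots, in 4 sections of mouse heart after MI. Each spot is a small region that can hold several cells, and the unit is the unique molecular identifier (UMI), which stands for 1 captured mRNA molecule. The animals were female Hsd:ICR (CD1) mice, 12 weeks old at surgery, in which the left anterior descending coronary artery was tied off permanently. A fresh-frozen section was taken on each of days 1, 4, 7 and 14, from 1 mouse per day. No reporter allele or drug treatment separated the days, and no sham or uninjured section was analysed here, so that a level before injury cannot be given. With 1 mouse per day, the day and the mouse cannot be told apart, and no test between days was made.

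Pyruvate dehydrogenase turns pyruvate into acetyl-CoA inside the mitochondrion, and citrate synthase joins that acetyl group to oxaloacetate. The cycle then oxidises citrate stepwise back to oxaloacetate, passing electrons to NADH and, at succinate dehydrogenase, directly to the respiratory chain. Adult cardiomyocytes are packed with mitochondria and draw most of their energy from fatty acids oxidised through this cycle. Idh3a belongs to the NAD-dependent isocitrate dehydrogenase of the cycle, whereas Idh2 encodes the NADP-dependent mitochondrial enzyme that makes NADPH from the same substrate.

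On GRCm38 with the GENCODE vM21 annotation, Pdha1, a subunit of the pyruvate dehydrogenase E1 enzyme, lies at chrX:160122209-160138413 and Cs at chr10:128337734-128362479. Idh3a lies at chr9:54586334-54604661, Idh2 at chr7:80094846-80115392 and Ogdh, the E1 subunit of the oxoglutarate dehydrogenase complex, at chr11:6291633-6356642. Suclg1, the alpha subunit of succinyl-CoA ligase, lies at chr6:73248382-73276911 and Sdha, the flavoprotein of succinate dehydrogenase, at chr13:74322254-74350280. Fh1 (fumarase) lies at chr1:175600374-175625635 and Mdh2 (mitochondrial malate dehydrogenase) at chr5:135778480-135790398. Fh1 overlaps Kmo and Pdha1 overlaps Map3k15, both on the other strand, and Sdha overlaps a processed pseudogene on the other strand. Cs overlaps the snoRNA gene Gm23182 and Idh2 overlaps Gm45203, both on the same strand. Whether the counting used strand is not given in the sources used here.

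Promoter windows of 250 bases before to 50 bases after the transcription start were taken from RefSeq (GRCm38.p6) for 8 of the 9 members, with no entry for Idh3a. They are shown because the members moved together across pooled groups of spots, as described below, which other mitochondrial genes and Myl2 did as well. Capitals mark the letters of the estrogen-related receptor core, the cAMP response element, the ETS motif and the long NRF1 motif on either strand. The Ogdh window at chr11:6291920-6292219 on the plus strand holds the estrogen-related receptor core, read on the other strand. The Mdh2 window at chr5:135778399-135778698 on the plus strand holds a cAMP response element. The Idh2 window at chr7:80115301-80115600 on the minus strand belongs to the member with the steepest ratio between quartiles and holds none of these 4 motifs.
Ogdh: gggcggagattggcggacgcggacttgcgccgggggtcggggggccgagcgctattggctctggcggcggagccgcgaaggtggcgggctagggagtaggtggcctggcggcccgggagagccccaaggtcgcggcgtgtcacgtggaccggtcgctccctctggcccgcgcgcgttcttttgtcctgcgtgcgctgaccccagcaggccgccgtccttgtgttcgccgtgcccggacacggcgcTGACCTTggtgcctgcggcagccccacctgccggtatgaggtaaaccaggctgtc
Mdh2: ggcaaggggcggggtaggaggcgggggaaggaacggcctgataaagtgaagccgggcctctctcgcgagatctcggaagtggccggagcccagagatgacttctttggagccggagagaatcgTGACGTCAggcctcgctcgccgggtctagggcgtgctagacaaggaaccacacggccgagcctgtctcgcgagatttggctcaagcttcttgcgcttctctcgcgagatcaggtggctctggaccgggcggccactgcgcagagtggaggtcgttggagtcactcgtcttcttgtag
Idh2: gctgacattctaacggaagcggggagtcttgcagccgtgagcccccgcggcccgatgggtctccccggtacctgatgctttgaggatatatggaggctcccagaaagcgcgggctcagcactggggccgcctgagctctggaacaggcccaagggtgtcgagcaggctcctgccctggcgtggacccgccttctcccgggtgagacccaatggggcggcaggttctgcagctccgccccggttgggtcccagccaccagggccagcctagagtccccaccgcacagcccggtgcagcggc
The core AAGGTCA was found on either strand in 1 of 8 members (Ogdh), against 5.38% of the 27025 genes with a window. TGACGTCA was found in 2 of 8 (Mdh2 and Ogdh) against 2.03%, and the NRF1 motif GCATGCGC in 1 of 8 (Ogdh) against 3.05%. The shorter NRF1 letters TGCGCA, which can overlap the longer motif, were found in 3 of 8 (Mdh2, Ogdh and Sdha) against 8.79%. The SP1 letters GGGCGG were found in 5 of 8 against 38.2%. The ETS motif CCGGAAG was found in 0 of 8 against 9.93% and the YY1 motif AAGATGGC in 0 of 8 against 3.19%. The 8 members had 13 windows, of which only Ogdh had several, and the 27025 genes had 32851, so that Ogdh had more places to match. Counted by window, AAGGTCA was found in 1 of 13 against 4.72%. TGACGTCA was found in 4 of 13 against 1.79%, and GCATGCGC in 2 of 13 against 2.71%. Several Ogdh windows overlap each other and repeat the same letters, and a match in these letters is a description of the window, not a site.

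Spots with more than 1% hemoglobin UMIs were removed, which left 7503 of 9102 spots and 9292678 to 15713779 UMIs per section, with medians of 5188 to 8799 UMIs per spot. Barcodes mark positions on the slide and not cells, and 1332 of 3178 were used in all 4 sections. Within each section the spots were ranked by the share of UMIs from Ankrd1, Flnc, Xirp2 and Nppb, genes known to be induced in stressed cardiomyocytes, and divided into quartiles of equal spot number. Levels are given as UMIs per 1000000 UMIs of the pooled spots (CPM). The ranking genes stood at 426, 422, 712 and 323 CPM in the lowest quartile on days 1, 4, 7 and 14, and 13184, 5367, 6280 and 2574 in the highest. The quartiles also differed in tissue. All 8 cardiomyocyte markers were detected, and their summed level was 57961, 36687, 26942 and 51610 CPM in the lowest quartile on days 1, 4, 7 and 14 and 36058, 31615, 47572 and 54393 in the highest, lower in the highest quartile on days 1 and 4 and higher on days 7 and 14. The summed level of 6 fibroblast markers was 1009, 13248, 23635 and 4108 in the lowest quartile and 1928, 15467, 10098 and 2251 in the highest. Of the 4 atrial markers 3 were detected, with Bmp10 at 0. Their sum was 93.3 CPM in the lowest and 27.0 in the second quartile of day 7, and at most 5.41 in the highest quartiles. The 5 fast skeletal muscle markers reached 7421 CPM in the lowest quartile of day 7 and were at most 93.1 in the highest quartiles. Summed over 6 macrophage markers, the level was 282 to 3123 CPM in the lowest quartiles and 451 to 2192 in the highest. The share of UMIs from mitochondrially encoded transcripts went from 30.6% in the lowest to 20.5% in the highest quartile of day 1, while on day 4 it was 28.5% and 23.2%, on day 7 19.3% and 20.7%, and on day 14 33.4% and 32.2%. The share of spots with at least 0.5 times the median Myh6+Myl2 share of their section, called myocardial spots here, was 98.5%, 58.6%, 32.0% and 63.6% in the lowest quartile and 32.4%, 47.3%, 79.0% and 93.3% in the highest. The highest quartile was thus the poorer in myocardial spots on days 1 and 4 and the richer on days 7 and 14.

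Over whole sections, the 9 genes together were at their highest on day 1 and lowest on day 4. Their summed level was 7221, 5637, 6258 and 6882 CPM on days 1, 4, 7 and 14. Day 1 was 1.28 times day 4 (95% interval 1.27 to 1.29), and each step in the order day 1, day 14, day 7, day 4 was larger than counting error. These and the other intervals cover counting error only, not the difference between mice. Per 1000 UMIs of Myh6+Myl2, the cardiac alpha-myosin heavy chain and the ventricular myosin light chain, the sum was 377, 336, 319 and 314, an order that ran down with the days. Per 1000 UMIs of 4 transcripts of the thin filament and its regulation (Tnnt2, Tnnc1, Actc1 and Tpm1) it was 309, 292, 295 and 287, so that the highest day was 1.07 times the lowest. The size and the order of the differences between days therefore rested on the scale.

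The members did not share one order of days. Pdha1, at the entry, had 705, 508, 612 and 597 CPM on days 1, 4, 7 and 14, and Cs had 662, 484, 546 and 609. Both were highest on day 1, and for Pdha1 days 7 and 14 did not differ beyond counting error. Idh3a had 336, 306, 348 and 428, and Idh2 had 1261, 1032, 1058 and 1173. Idh3a was highest on day 14, with days 1 and 7 within counting error, whereas Idh2 was highest on day 1, with days 4 and 7 within counting error. Ogdh had 1188, 1029, 1191 and 1273 CPM, with its highest value on day 14, and days 1 and 7 were within counting error of each other. Suclg1 had 402, 339, 339 and 428, and Sdha had 713, 580, 592 and 674. Both members had their lower values on days 4 and 7, which did not differ beyond counting error. Fh1 had 420, 323, 347 and 382 CPM, and Mdh2 had 1534, 1036, 1225 and 1318. Mdh2 had the widest range of the members, 1.48-fold between days 1 and 4. Per Myh6+Myl2 the range of single members was 1.07-fold (Ogdh) to 1.35-fold (Pdha1).

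Across the quartiles, the members followed each other within a section, and the shape differed between sections. On day 1 the 9 genes together had 8688, 8718, 6691 and 4892 CPM from the lowest to the highest quartile. On day 4 they had 5594, 7001, 6014 and 3779, on day 7 they had 4683, 7047, 7334 and 5597, and on day 14 they had 6750, 7168, 6997 and 6525. The highest quartile was the lowest of the 4 on days 1, 4 and 14, while on day 7 the lowest quartile, in which the skeletal muscle and fibroblast markers of that section were highest, was lower still. Whether this quartile's other tissue accounts for its value was not tested.

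**Figure D1:**
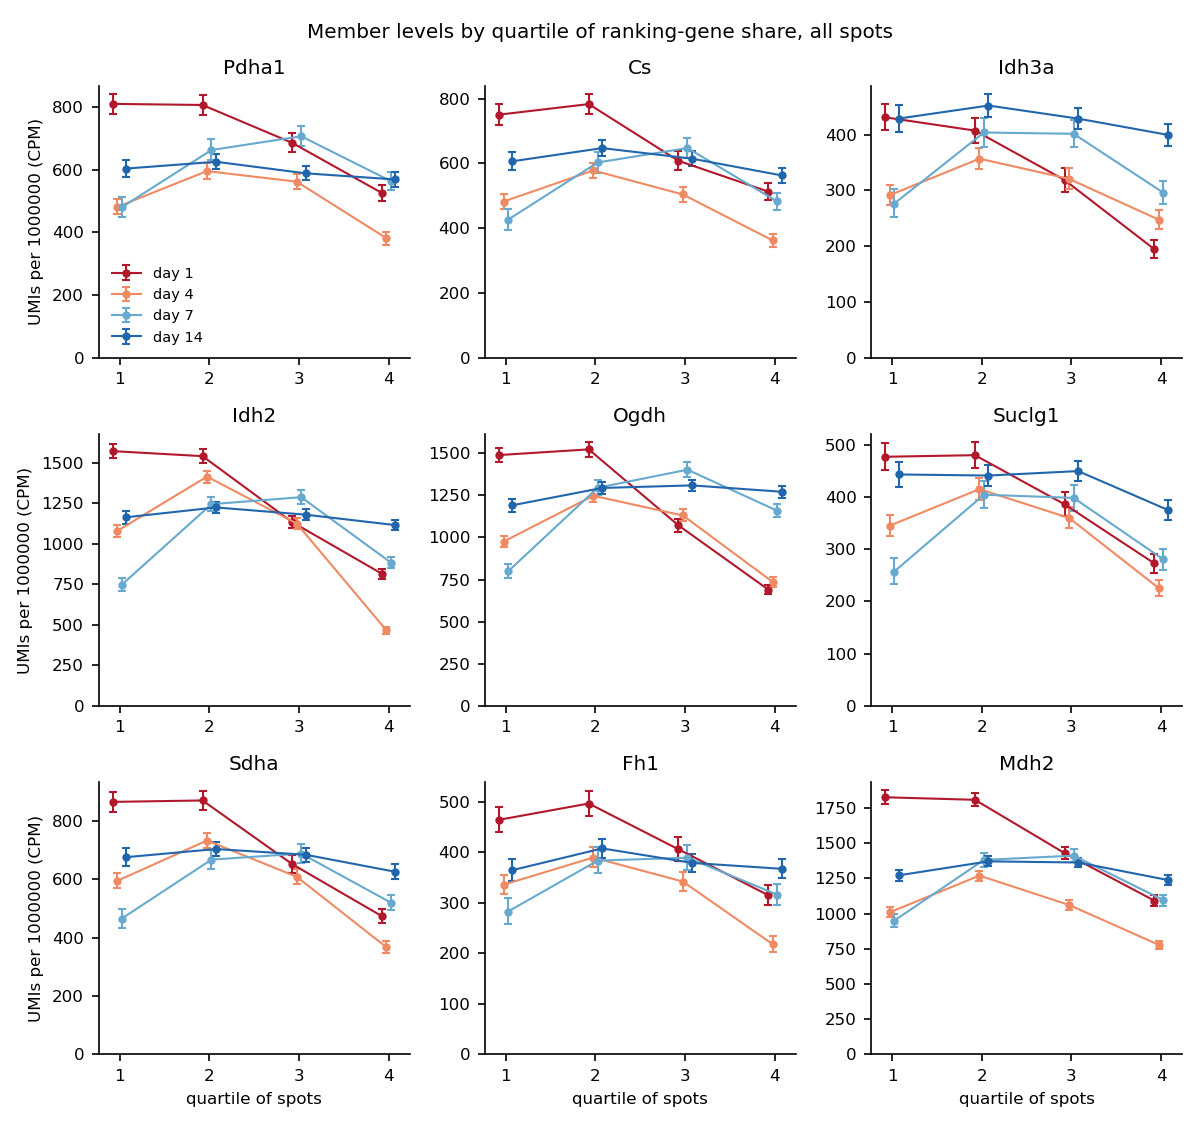
CPM (y axis) of each of the 9 members in the 4 quartiles of spots ranked by ranking-gene share (x axis, 1 lowest), 1 line per section, with exact Poisson 95% intervals as bars. For all members quartile 4 lies below quartile 1 on days 1 and 4 and above it on day 7.

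At the entry of the cycle, Pdha1 had 811, 482, 480 and 604 CPM in the lowest quartile on days 1, 4, 7 and 14 and 526, 381, 564 and 569 in the highest. Cs, which commits acetyl-CoA to the cycle, had 750, 482, 426 and 606 in the lowest and 513, 362, 483 and 563 in the highest. Both were lower in the highest quartile on days 1 and 4 and higher on day 7, by intervals that exclude 1 in each case. In the oxidative decarboxylations, Idh3a had 431, 292, 276 and 429 in the lowest and 194, 247, 296 and 400 in the highest quartile. Idh2 had 1572, 1080, 747 and 1164 in the lowest and 815, 466, 884 and 1115 in the highest, and its ratio of 0.431 on day 4 (interval 0.407 to 0.457) was the steepest among the members and days. Ogdh, the last of these steps, had 1489, 975, 798 and 1191 in the lowest and 691, 736, 1159 and 1271 in the highest. Ogdh therefore ran from a ratio of 0.464 (0.441 to 0.488) on day 1 to 1.45 (1.36 to 1.55) on day 7, the widest span of any member.

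In the second part of the cycle, Suclg1 had 477, 345, 257 and 443 CPM in the lowest quartile and 273, 225, 281 and 375 in the highest. Sdha, the step shared with the respiratory chain, had 866, 595, 465 and 676 in the lowest and 473, 367, 520 and 626 in the highest. For these 2 members the highest quartile was below the lowest on days 1, 4 and 14. Fh1 had 465, 336, 283 and 365 in the lowest and 315, 218, 316 and 368 in the highest. Mdh2, which regenerates oxaloacetate, had 1827, 1009, 949 and 1272 in the lowest and 1091, 777, 1095 and 1238 in the highest. On day 14 the intervals of Fh1 and Mdh2 included 1, at ratios of 1.01 and 0.974.

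Taking the 4 sections as replicates of the quartile contrast, none of the members passed the test in either direction. edgeR's quasi-likelihood fit with the section as a block gave log2 differences in CPM between the highest and the lowest quartile of -0.48 for Idh2 (SE 0.23, adjusted p = 0.31) to -0.21 for Pdha1 (SE 0.14, adjusted p = 0.46). All 9 were below 0 with a median of -0.25, while the median of the 4765 genes tested was 0.11. The count was 0 of 9, beside 0.252% of all genes called lower and 1.93% called higher. With no adjustment 2 of 9 members had a p under 0.05 in edgeR, beside 821 of the 4765 genes tested. The 2 members were Suclg1 at -0.39 (SE 0.15, adjusted p = 0.20) and Sdha at -0.38 (SE 0.17, adjusted p = 0.27). DESeq2 also called 0 of 9. On simulated counts of this design, edgeR called 6 of 200 genes changed by a log2 value of 0.5 and 177 of 200 changed by 1. A difference of the size estimated here was therefore mostly not detectable, and the count of 0 does not show that the quartiles were alike.

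Within myocardial spots, all 9 members were lower in the quartile with the highest ranking-gene share. In that set, ranked into quartiles again, the 9 genes together had 8758, 7326, 7630 and 7260 CPM in the lowest quartile on days 1, 4, 7 and 14 and 6139, 4927, 6010 and 6534 in the highest. The ratios were 0.701 (0.686 to 0.716), 0.672 (0.658 to 0.688), 0.788 (0.768 to 0.807) and 0.900 (0.884 to 0.916), so that the difference was in the same direction in all 4 sections and narrowest on day 14. edgeR called 9 of 9 lower, at log2 differences of -0.54 for Idh2 (SE 0.10, adjusted p = 0.00065), -0.48 for Suclg1 (SE 0.07, adjusted p = 2.5e-05) and -0.44 for Sdha (SE 0.07, adjusted p = 6.7e-05). Idh3a was at -0.42, Cs at -0.36, Fh1 at -0.35, Mdh2 at -0.34, Ogdh at -0.31 (adjusted p = 0.0053) and Pdha1 at -0.29. Many other genes also differed here, with 11.6% of the 3675 genes tested called lower and 43.5% higher and a median over all genes of 0.21, beside a median of -0.36 for the members. A fit of only the outer quartiles was not made for these spots. This restriction to spots chosen by their Myh6+Myl2 share is an alternative to the test over all spots, which called none. Without the day 4 section 8 of 9 were called (Ogdh at -0.29, adjusted p = 0.051), and without any other section 9 of 9. In these spots the fibroblast markers summed to 836 to 1497 CPM in the lowest quartiles and 1967 to 6659 in the highest, and the macrophage markers to 283 to 436 and 417 to 1597. The cardiomyocyte markers went the other way in each section, from 58269 to 45632 CPM on day 1, 50669 to 41668 on day 4, 57408 to 51084 on day 7 and 56245 to 54777 on day 14. The mitochondrially encoded share was 30.5%, 38.9%, 31.6% and 36.2% in the lowest quartile and 26.0%, 29.9%, 22.2% and 32.3% in the highest. The part of these in the members' difference was not tested. In mRNA summed over spots, fewer cardiomyocytes and less of these mRNAs per cardiomyocyte cannot be told apart.

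Single members in myocardial spots showed how far this held. Idh2 had 1578, 1461, 1352 and 1267 CPM in the lowest quartile on days 1, 4, 7 and 14 and 1055, 734, 970 and 1110 in the highest, so that no value of the highest quartile reached the lowest value of the other. Suclg1 had 486, 441, 457 and 464 in the lowest and 362, 289, 302 and 376 in the highest, and Sdha had 874, 779, 724 and 729 against 591, 506, 562 and 623. For these 2 members as well, the values of the outer quartiles did not overlap between sections. The same held for Cs, Fh1 and Ogdh, whereas the outer quartiles of Idh3a overlapped. The share of all genes tested without such overlap was not determined, so this only describes these members. Ogdh had 1496, 1294, 1409 and 1295 in the lowest and 933, 997, 1228 and 1274 in the highest. On day 14 its ratio was 0.984 (0.945 to 1.02), and with Fh1, at 0.932 (0.865 to 1.00), it was the exception to intervals below 1. Such intervals held for 9 members on days 1, 4 and 7 and for 7 on day 14. Their share among all genes was not determined. Mdh2 had 1842, 1295, 1467 and 1351 in the lowest and 1342, 931, 1175 and 1237 in the highest, and Pdha1 had 824, 630, 731 and 636 against 655, 470, 605 and 571. Their outer quartiles overlapped between sections, the day 1 value of the highest lying above the day 4 value of the lowest, although each section had a ratio below 1.

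**Figure D2:**
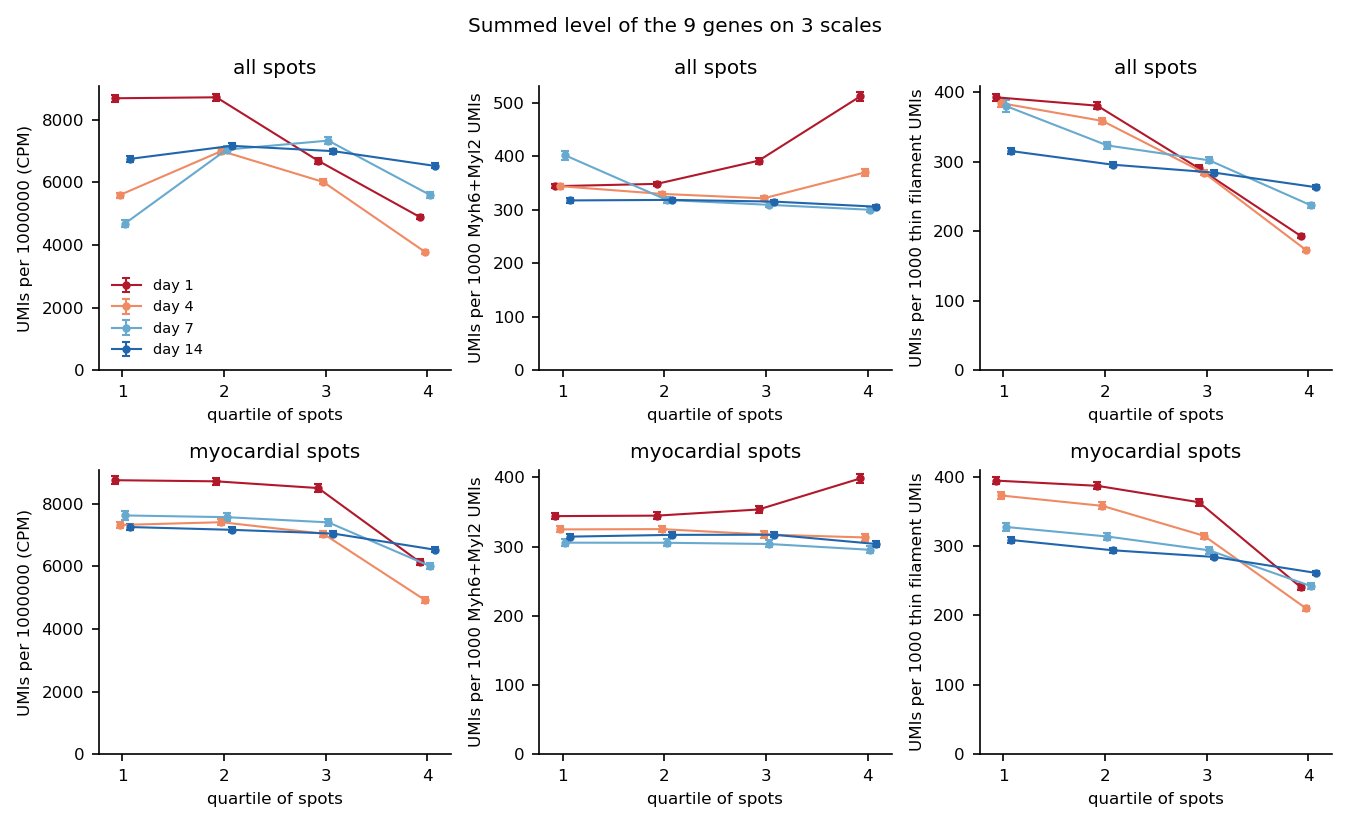
Summed UMIs of the 9 genes (y axes) by quartile of spots (x axis), in CPM, per 1000 Myh6+Myl2 UMIs and per 1000 UMIs of Tnnt2, Tnnc1, Actc1 and Tpm1 (labelled thin filament), in all spots (top) and in myocardial spots (bottom), with exact Poisson 95% intervals. In myocardial spots the CPM sum is lowest in quartile 4 in every section, whereas the Myh6+Myl2 scale stays between 295 and 399 in all 16 libraries.

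The second quartile served as another reference, chosen after seeing that the lowest quartile of days 4 and 7 was rich in fibroblast markers. Against it the highest quartile was lower for 8 of 9 members over all spots, beside 5.29% of all genes called lower and 29.5% higher. The second quartile of day 7 was itself mixed, with fast skeletal muscle markers at 2420 CPM against 93.1 in the highest. In the second quartile the cardiomyocyte markers summed to 58493, 48403, 51672.5 and 56038 CPM on days 1, 4, 7 and 14. The highest quartile had 36058, 31615, 47572 and 54393, so that this reference was richer in heart muscle mRNA in every section. The part of this in the members' difference was not tested. Suclg1 was at -0.61 (adjusted p = 0.027) and Idh2 at -0.75 (adjusted p = 0.037), and Ogdh at -0.49 did not pass (adjusted p = 0.079). Within single sections the interval of the ratio lay below 1 for 9 members on days 1, 4 and 7 and for 8 on day 14. The share of all genes with such intervals was not determined.

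Per Myh6+Myl2 UMI, none of the members passed the test between the quartiles. The 9 genes together had 344, 344, 401 and 317 UMIs per 1000 Myh6+Myl2 UMIs in the lowest quartile on days 1, 4, 7 and 14 and 512, 370, 300 and 305 in the highest. The direction changed between sections, being higher in the highest quartile on days 1 and 4 and lower on days 7 and 14. Single members held to this pattern, with intervals above 1 for 9 members on day 1, at ratios of 1.19 to 1.81, and below 1 for 9 members on day 7, at 0.669 to 0.907. On day 4 the interval lay above 1 for 5 members, below 1 for 1, Idh2, at 0.687, and included 1 for 3. On day 14 it lay below 1 for 5, above 1 for 1, Ogdh, at 1.06, and included 1 for 3. The share of all genes with such intervals was not determined, so these counts only describe the members. The denominator itself had ratios of 0.378, 0.628, 1.60 and 1.00 between the outer quartiles on days 1, 4, 7 and 14. Cs had 29.7, 29.6, 36.5 and 28.5 UMIs per 1000 Myh6+Myl2 UMIs in the lowest quartile and 53.6, 35.4, 25.8 and 26.4 in the highest. Its value for the highest quartile of day 1 stood above all its others. The fitted log2 differences were -0.13 (Idh2, SE 0.19) to 0.15 (Pdha1, SE 0.21), with a median of 0.09 beside 0.43 over the 4763 genes tested. edgeR called 0 of 9, beside 0.021% of genes lower and 0.063% higher, and DESeq2 called 0 of 9. In edgeR 0 members had an unadjusted p under 0.05, beside 428 of the 4763 genes. Here simulation recovered 2 of 200 genes changed by a log2 value of 1, so that this test had little reach. In myocardial spots the same scale gave -0.14 to 0.12 with 0 of 9 called, beside 0.926% lower and 82% higher, and with SEs of 0.06 to 0.10. Within these spots Ogdh was at 58.8, 57.4, 56.5 and 56.1 in the lowest and 60.6, 63.4, 60.4 and 59.3 in the highest quartile, and its ratio lay above 1 beyond counting error on days 4, 7 and 14. Idh2 was at 62.0, 64.8, 54.2 and 54.9 against 68.5, 46.7, 47.7 and 51.6, lower on days 4, 7 and 14 and higher on day 1. The denominator itself moved, from 25274 to 9560 CPM between the outer quartiles on day 1, from 16277 to 10224 on day 4 and from 11668 to 18680 on day 7, with 21284 and 21361 on day 14. In myocardial spots its level in the highest quartile was 0.605, 0.697, 0.815 and 0.931 times that in the lowest on days 1, 4, 7 and 14.

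Per UMI of Tnnt2, Tnnc1, Actc1 and Tpm1, all members were lower in the highest quartile of every section. The 9 genes together had 393, 385, 380 and 316 UMIs per 1000 of these in the lowest quartile and 193, 173, 237 and 263 in the highest, ratios of 0.492, 0.450, 0.624 and 0.835. edgeR called 9 of 9 lower, from -0.93 for Idh2 (SE 0.21, adjusted p = 0.012) to -0.68 for Ogdh (SE 0.18, adjusted p = 0.024) and Pdha1 (SE 0.13, adjusted p = 0.0084). On this scale 18.7% of all genes were called lower and 0.567% higher, with a median over all genes of -0.40 beside -0.73 for the members. The calls were lost without the day 4 section or without the day 7 section (0 of 9 each, lowest adjusted p = 0.19 and 0.062), while all 9 estimates stayed below 0. The denominator stood at 22109, 14549, 12308 and 21395 CPM in the lowest quartile and 25314, 21827, 23585 and 24775 in the highest, and was therefore higher in the highest quartile of every section. In myocardial spots it was higher as well, at ratios of 1.15, 1.19, 1.06 and 1.06. In myocardial spots, a combination added after seeing the data, the members were at -0.70 to -0.45 with 9 of 9 called, beside 18.2% of genes lower and 25.6% higher and a median over all genes of 0.05. In myocardial spots the members' estimates therefore lay on both sides of 0 per Myh6+Myl2 UMI and all below 0 per UMI of the other 4 transcripts.

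**Figure D3:**
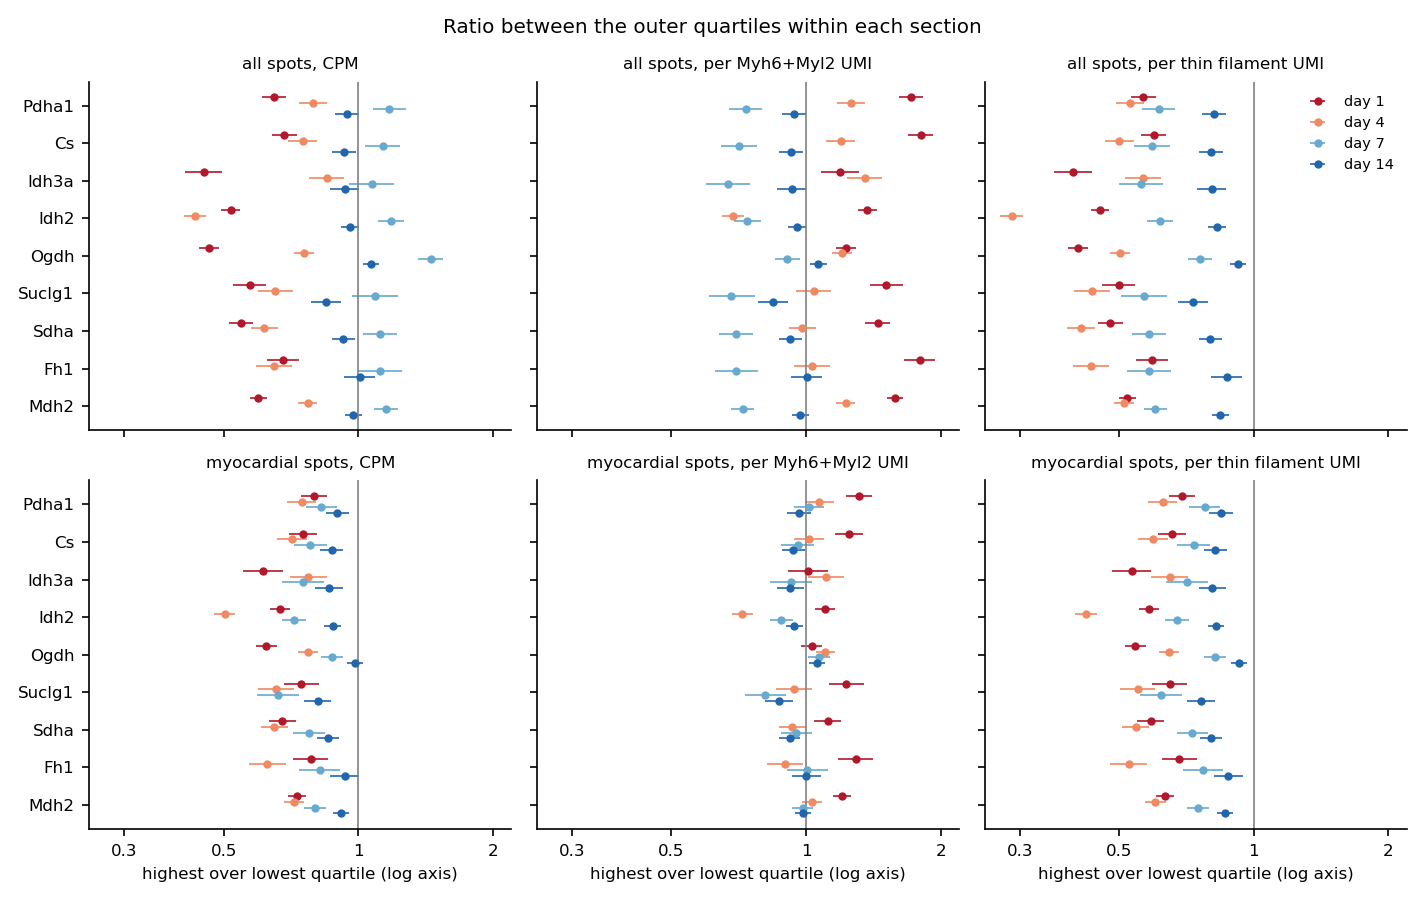
Ratio of the highest to the lowest quartile (x axis, log scale) for each member (y axis) within each section, on 3 scales, for all spots (top) and myocardial spots (bottom), with exact conditional 95% intervals and a line at 1. On the CPM scale in myocardial spots all points lie below 1, from 0.502 (Idh2, day 4) to 0.984 (Ogdh, day 14), and per Myh6+Myl2 they lie on both sides of 1.

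The ratio of Idh2 to Idh3a stood apart in the highest quartile of day 4. Over all spots, Idh2 had 3.65, 3.78, 3.56 and 4.19 UMIs per Idh3a UMI from the lowest to the highest quartile of day 1. On day 4 the ratio was 3.70, 3.96, 3.51 and 1.88, the last with an interval of 1.73 to 2.05 that overlaps no other quartile's of that day. On day 7 it was 2.70, 3.08, 3.21 and 2.99, and on day 14 it was 2.71, 2.71, 2.75 and 2.79. In myocardial spots of day 4 the ratio was 3.80 in the lowest and 2.47 (2.27 to 2.69) in the highest quartile. The low ratio thus belongs to 1 mouse, in which Idh2 took 12.3% of the UMIs of the 9 genes in the highest quartile, the lowest share among the 16 libraries, whose highest was 20.2%. Sdha kept the narrowest share, 9.29% to 10.6% over the same libraries. UMIs of different genes also differ by capture, so the ratios are compared between libraries and not read as amounts.

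**Figure D4:**
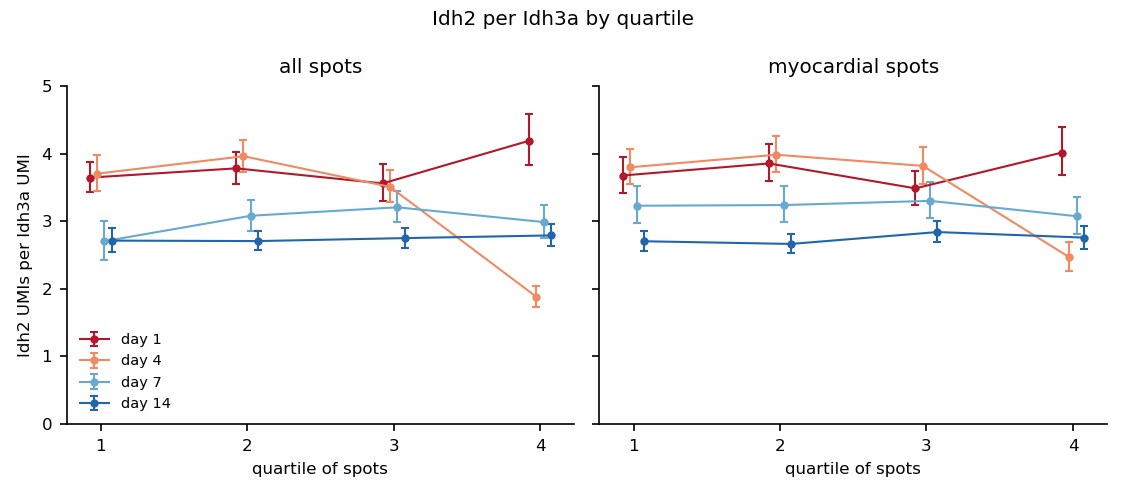
Idh2 UMIs per Idh3a UMI (y axis) by quartile of spots (x axis) in each section, for all spots (left) and myocardial spots (right), with exact conditional 95% intervals. The highest quartile of day 4 stands at 1.88 over all spots and 2.47 in myocardial spots, below the other quartiles of that day.

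In myocardial spots most of the rest of the pathway was lower as well on the CPM scale. Of 67 further genes in 9 lists, 53 were tested over all spots and 0 passed in edgeR on the CPM scale or per Myh6+Myl2 UMI. On these scales 8 and 3 had an unadjusted p under 0.05, beside 821 of 4765 and 428 of 4763 genes tested. DESeq2 called 1 and 0. In myocardial spots 50 were tested on the CPM scale, of which 28 were lower and 2 higher, beside the 11.6% and 43.5% of all genes given above. Per Myh6+Myl2 UMI in the same spots 0 of 50 were lower and 17 higher, among them 7 of 10 genes of the mitochondrial membranes, beside 0.926% and 82% of all genes. The direction of the calls therefore rested on the scale, but the calls fell largely in different lists. The other cycle subunits and the shuttle and cytosolic genes held 10 and 7 of the lower calls on the CPM scale. The same 2 lists held 0 and 1 of the higher calls per Myh6+Myl2 UMI. Among the 10 other cycle subunits the median log2 difference over all spots was -0.28, and in myocardial spots 10 of 10 were lower, with a median of -0.37. Dlat, the E2 core of pyruvate dehydrogenase, was at -0.14 (adjusted p = 0.74) and fell by 0.24 (adjusted p = 0.021) in myocardial spots, where 2 of 3 partner subunits were called lower. All 3 genes of pyruvate entry were lower there, the carriers Mpc1 and Mpc2 and pyruvate carboxylase Pcx, at -0.22, -0.34 and -0.31. Of the 14 shuttle and cytosolic genes 9 were tested in myocardial spots and 7 were lower, among them Got2 at -0.37 and Mdh1 at -0.36.

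The regulators of pyruvate dehydrogenase were sparse. Of 7 kinases and phosphatases 3 had enough UMIs to be tested, and in myocardial spots Pdk4 fell by 0.41 (SE 0.12, adjusted p = 0.0087) and Pdk2 by 0.26 (adjusted p = 0.036), with Pdk1 at -0.10 (adjusted p = 0.41). Pdk4, a kinase that inhibits the complex and is known to be induced when fatty acids are the fuel, had 97.6 CPM in the lowest and 40.4 in the highest quartile of day 4 over all spots, and 42.6 and 39.5 on day 1. On day 7 it had 59.7 and 40.5, and on day 14 it had 84.8 and 59.2. The highest quartile was below the lowest beyond counting error on days 4, 7 and 14, and not on day 1. In myocardial spots this held on days 4 and 14, at ratios of 0.606 (0.510 to 0.718) and 0.685 (0.573 to 0.818), while the intervals of day 1, at 1.11 (0.840 to 1.47), and day 7, at 0.798 (0.593 to 1.07), included 1. Over all spots the fitted difference of Pdk4 was -0.59 (SE 0.23, adjusted p = 0.20).

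Other mitochondrial groups had medians near 0 in myocardial spots on the CPM scale, with -0.11 for the inflows and -0.10 for the transcriptional regulators. The median over all genes tested there was 0.21, above the medians of these groups. The counts in myocardial spots that follow stand beside 11.6% of all genes called lower and 43.5% higher on the CPM scale. Of 3 tested assembly factors of succinate dehydrogenase 0 were called in myocardial spots, with a median of 0.08, and of 10 proteins of the mitochondrial membranes 2 were lower, Vdac1 and Vdac3 at -0.24 each, with a median of -0.02. Of 5 tested inflows 2 were lower and 1 was higher. Acat1 of ketone and isoleucine breakdown and Oxct1 of ketone use were lower at -0.50 and -0.26. Of 10 transcriptional regulators 4 were tested in myocardial spots, and 1 was called. Hif1a, the oxygen-regulated subunit of HIF-1, was higher at 0.88 (SE 0.15, adjusted p = 0.00012), with 29.3, 23.1, 34.2 and 27.2 CPM in the lowest quartile on days 1, 4, 7 and 14 and 69.5, 41.5, 70.1 and 35.6 in the highest. The fibroblast and macrophage markers were also higher in the highest quartile of these spots, and which cells held the Hif1a mRNA was not tested. Ppargc1a, a coactivator of mitochondrial genes, was at -0.31 (adjusted p = 0.10), and Esrra, the estrogen-related receptor alpha, at -0.15 (adjusted p = 0.096). Of the genes named from the lists, Dlat and Pdk4 were set by rule and the others were chosen after their values were seen. Per Myh6+Myl2 UMI in myocardial spots, 0 of 10 other cycle subunits were called, beside 0.926% of all genes lower and 82% higher.

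**Figure D5:**
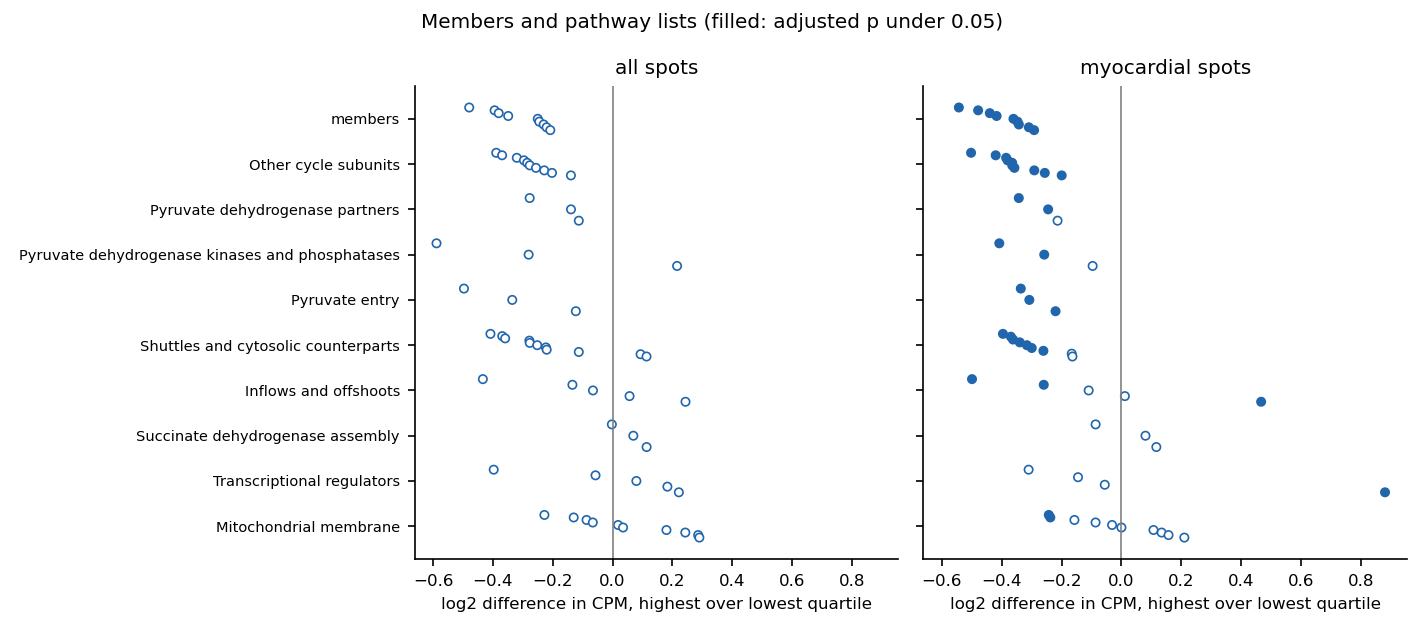
log2 difference in CPM between the highest and the lowest quartile (x axis) for the members and the genes of the pathway lists (y axis), in all spots (left) and myocardial spots (right), with filled points past an adjusted p of 0.05 in edgeR. In myocardial spots the 9 members and the 10 other cycle subunits are all filled and below 0. Of the list genes 2, Hif1a among them, are filled and above 0, beside 43.5% of all genes called higher.

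The genes whose profile over the 16 section and quartile libraries was most like the members' sum were other mitochondrial genes. Among 4671 genes outside all pathway and marker lists, the highest Pearson correlations of log2 CPM were 0.993 for Cox6a2, the muscle form of a cytochrome oxidase subunit, 0.991 for Atp5a1 and 0.987 for Atp5g3 of ATP synthase and 0.985 for Echs1 of fatty acid oxidation. Cyc1, Etfb, Ndufs7, Coq9 and Atp5o followed at 0.980 to 0.974. The libraries share sections and depth, so the values are descriptions only. Each member correlated with the sum of the other 8 at 0.81 (Idh3a) to 0.98 (Sdha). Against the sum of all 9, Myl2 stood at 0.95, Myh6 at 0.81, Tnnt2 at 0.71 and Tpm1 at 0.07, and the transcripts encoded in the mitochondrial genome stood together at 0.68.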

How the data were processed

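Visium UMI counts of 4 sections, 1 per day, were used. The authors deposited raw counts per gene and spot, made with Space Ranger 1.3.0 on mm10 per the labels and without normalization. Seurat 4.1.1 is also named in the submitters' processing notes. Each file belongs to 1 sample, and samples were grouped by the labelled day. Spots with over 1% of UMIs in 8 hemoglobin genes were removed. Spots were ranked within each section by the share of Ankrd1, Flnc, Xirp2 and Nppb and cut into quartiles, and counts were summed to 16 libraries. The annotation release and any use of strand in counting are not given in the sources used here. No doublet caller was run, since a spot is a region. Positions and images were not used.

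Genes with at least 1000 UMIs were tested with edgeR 4.0.16 (limma 3.58.1, R 4.3.3) by robust quasi-likelihood with the section as a block, with total UMIs or Myh6+Myl2 UMIs as library size and no TMM, comparing the highest with the lowest quartile. p-values were adjusted by Benjamini-Hochberg over all genes tested. SEs are the log2 difference divided by the square root of F. DESeq2 1.42.0 was an alternative. The sections differ in day and mouse. The fit holds all 4 quartiles of each section, so p-values measure how quartile differences vary between these 4 animals, pooled over all 4 quartiles. Quartiles of 1 mouse are not independent animals. With only the outer quartiles fitted in edgeR over all spots, the members had adjusted p = 0.81 to 0.88 on the CPM scale. Such a fit was not made for myocardial spots. Levels have exact Poisson and ratios exact conditional 95% intervals, with the denominators taken as known. PCR duplicates are removed by UMIs, and intervals cover counting error only. The code was tested on simulated data. Likeness is Pearson's r of log2(CPM + 1), with CPM the UMIs per 1000000.

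The members, lists and ranking were chosen with earlier results of these data known. Named are all members, Pdk4 and Dlat, up to 3 genes per list by absolute log2 difference among those past the threshold on either scale, and the 10 most like genes, of which some items are not reported here. Pdk1, Ppargc1a and Esrra are named as well, though they did not pass on the CPM scale in myocardial spots. Alternatives changed the tool, scaling, filters, spots, ranking, reference quartile, sections and denominator.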

Additional observations from a re-analysis of the deposited data

Results flagged for a closer look

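Over all spots, the ratio of the highest to the lowest quartile pointed in opposite directions on different days, with intervals on both sides of 1. This held for all 9 members per Myh6+Myl2 UMI and for 7 of 9 on the CPM scale, and the share of all genes was not determined. The difference between days was not tested, since each day is 1 mouse. Per Myh6+Myl2, the ratios on days 1 and 7 were 1.72 and 0.733 for Pdha1, 1.81 and 0.708 for Cs, 1.23 and 0.907 for Ogdh, 1.51 and 0.681 for Suclg1, 1.45 and 0.698 for Sdha, 1.79 and 0.699 for Fh1 and 1.58 and 0.721 for Mdh2. Idh2 ran from 1.37 on day 1 to 0.687 on day 4, and Idh3a from 1.35 on day 4 to 0.669 on day 7. On the CPM scale, the ratios on days 1 and 7 were 0.649 and 1.17 for Pdha1, 0.683 and 1.13 for Cs, 0.464 and 1.45 for Ogdh, 0.547 and 1.12 for Sdha and 0.597 and 1.15 for Mdh2. On that scale Fh1 ran from 0.648 on day 4 to 1.12 on day 7, and Idh2 from 0.431 to 1.18 on the same days. The share of myocardial spots in the lowest quartile was 98.5% on day 1 and 32.0% on day 7. That quartile of day 7 also held fast skeletal muscle markers at 7421 CPM. The part of either in these ratios was not tested. In myocardial spots all CPM ratios lay below 1 on every day, the highest at 0.984. Per Myh6+Myl2 UMI in those spots, 7 intervals lay above 1 and 2 included 1 on day 1. On day 7, 2 lay below 1, 1 lay above and 6 included 1. Among 18 groups of 4 sections searched, none held a section apart from the other 3.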

How the results depend on the processing

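The calls of the members turned on which spots were ranked and on the denominator. On the CPM scale, 0 of 9 were called, and this count became 9 with only myocardial spots and 8 with the second quartile as reference. It stayed at 0 in all other refits, which were DESeq2, TMM, genes kept from 10 UMIs, a fit with no block, only the outer quartiles, both hemoglobin settings, spots of at least 1000 UMIs, ranking without Ankrd1, ranking into 2 groups, mitochondrial transcripts left out and each section left out. Ogdh ran from -0.46 (without day 7) to 0.0752 (without day 1). In myocardial spots 9 were called with TMM, at -0.75 to -0.50, and 8 to 9 with each section left out. Per Myh6+Myl2 UMI the count of 0 became 9 with Tnnt2, Tnnc1, Actc1 and Tpm1 as denominator and 9 when only myocardial spots were used with it. With that denominator, leaving out each section gave 0 to 9, with 0 without day 4 or day 7. The second quartile and the combinations of 2 choices were added after seeing the data. The quartiles were paired within sections by the block, except in the fit with no block. Between days, no paired analysis was possible because each day has 1 section.

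Signs per Myh6+Myl2 UMI turned in 36 refits of single members, beside 129 that kept sign and call. With the 4 other transcripts as denominator Cs was at -0.70, Idh3a at -0.81, Ogdh at -0.68, Fh1 at -0.73, Mdh2 at -0.71 and Pdha1 at -0.68, and in myocardial spots they were at -0.52, -0.57, -0.46, -0.50, -0.50 and -0.45. With each section left out, Cs ran from -0.11 to 0.35, Idh3a from -0.15 to 0.20, Suclg1 from -0.24 to 0.14, Sdha from -0.22 to 0.14, Fh1 from -0.16 to 0.30, Mdh2 from -0.0721 to 0.31 and Pdha1 from -0.0689 to 0.35. Their highest values came without day 7, and their lowest without day 1 except for Idh3a, whose lowest came without day 4. Idh3a was at -0.0023 with no hemoglobin filter, -0.0287 with the limit of 0.5%, -0.015 in myocardial spots and -0.0523 per Myl2. Per Myh6, Idh2 was at 0.0169, Suclg1 at 0.11 and Sdha at 0.11. Suclg1 and Sdha were at 0.0033 and 0.0006 with no block, 0.0718 and 0.10 when ranked without Ankrd1 and 0.0949 and 0.10 against the second quartile. Suclg1 was at 0.0003 with no hemoglobin filter and 0.0096 with 2 groups. Of these, only the values with the other denominator passed the threshold.

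Between days, the highest over the lowest sum was 1.28 on the CPM scale, 1.19 in myocardial spots and 1.31 without mitochondrial transcripts. Per Myh6+Myl2 it was 1.20, 1.18 in myocardial spots and 1.07 with the other denominator. The cause of these changes was not tested. Genes under 1000 UMIs were not tested, which limits the lists, and 1 mouse per day limits every statement on days.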
